A study of Mus musculus with 2 samples.

Results

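The genes described here encode ATP-dependent chromatin remodellers and proteins that carry the same family names. They were taken by symbol, as every probe whose platform annotation names a gene starting with Smarc, Ino80, Chd and a digit, or Arid and a digit. This gave 31 genes read by 46 probes, of 16593 named genes and 25697 probes on the array. Illumina bead arrays read transcripts of embryonic fibroblasts from C57BL mice, grown in culture, in 1 colour. One sample, Dnmt1-/- (p53-/-), lacked the maintenance DNA methyltransferase Dnmt1 together with p53 and is called the Dnmt1-null line. The other, p53-/-, lacked p53 alone and is called the control line, so the loss of p53 was shared by both. Each genotype had 1 array. How each line was derived, and whether it is 1 clone, is not stated in the labels.

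Remodellers use ATP to slide, evict or exchange nucleosomes, and their motor subunits share an SNF2-type ATPase domain. SWI/SNF complexes (BAF and PBAF) open chromatin at promoters and enhancers, ISWI complexes space nucleosomes evenly, CHD enzymes include the motor of the repressive NuRD complex, and INO80 complexes remodel nucleosomes that carry the histone variant H2A.Z. In mouse fibroblasts Dnmt1 copies CG methylation to the new strand after replication, and several SNF2-type enzymes are known to act on the same chromatin as the methylation machinery. The comparison asks which of these genes differ in somatic cells that lack Dnmt1. Smarca5 (the close paralog of Smarca1), Chd2, Chd3, Chd7, Chd9, Arid1b and Ino80d were not analysed here.

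A probe was called detected on an array at a deposited detection p-value under 0.01, and 39.1% of all probes passed on the Dnmt1-null array and 40.1% on the control array. Levels are background-corrected, quantile-normalized log2 intensities, and differences are Dnmt1-null minus control. Dnmt1 itself had a signal of 439 units in the Dnmt1-null line and 1715 units in the control line, a difference of -2.18 log2. Its probe stayed above background without Dnmt1, and where that probe lies relative to the disruption was not examined, so this is an incomplete check of the label. All 8 fibroblast markers on the array were detected in both lines, with 2 above 0 and 6 below 0 and summed signals of 28557 units in the Dnmt1-null line and 33339 units in the control line. S100a4 differed by 1.99 log2, Pdgfrb by 0.70 log2, Col3a1 by -0.94 log2 and Pdgfra by -0.83 log2, and Col1a1, Col1a2, Thy1 and Vim by -0.54 to -0.03 log2. No endothelial and no neural or glial marker was detected (0 of 4 in either list, on either array), and of 4 haematopoietic markers Cd3e alone passed, in the Dnmt1-null line. Skeletal muscle markers differed, with 4 of 5 above background in the Dnmt1-null line, 2 of 5 in the control line, and a summed signal of 4001 units in the Dnmt1-null line and 1323 units in the control line. Of 5 epithelial markers, 2 passed detection in the Dnmt1-null line (summed signal 1018 units) and 0 passed in the control line (744 units). Krt14 carried that sum, with 502 units in the Dnmt1-null line and 138 units in the control line. The signals of the other 4, before normalization, were lower in the Dnmt1-null line. Krt8, the other marker that passed there, had a normalized difference of 0.35 log2. The part of these markers in the results below was not tested.

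Among the detected remodeller genes only Smarca1 passed 2-fold. As a share of the detected members this was near the share of all detected genes, given below. Detection was reached by 23 of the 31 genes, by 21 in both lines, by 2 in the control line only and by 0 in the Dnmt1-null line only. Over all 16593 genes 7727 were detected, 6850 in both lines, 510 in the control line only and 367 in the Dnmt1-null line only. In the Dnmt1-null line Smarca1 was the only detected member lower by at least 2-fold (1 of 23), where 4.59% of the 7727 detected genes were lower by that much. No member was higher by 2-fold or more (0 of 23), where 5.55% of all detected genes were. These are shares of genes that passed detection on at least 1 array, and a gene that passed through 1 array alone tends to differ. With folds of such genes set at their lower limit the shares of all detected genes were 3.71% lower and 4.5% higher, and the member counts were again 1 and 0. Of the 21 members detected in both lines 0 differed by 2-fold, where 2.6% of such genes were lower and 2.88% higher. With 1 array per genotype no test was possible, and all differences below are between 2 samples.

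**Figure D1:**
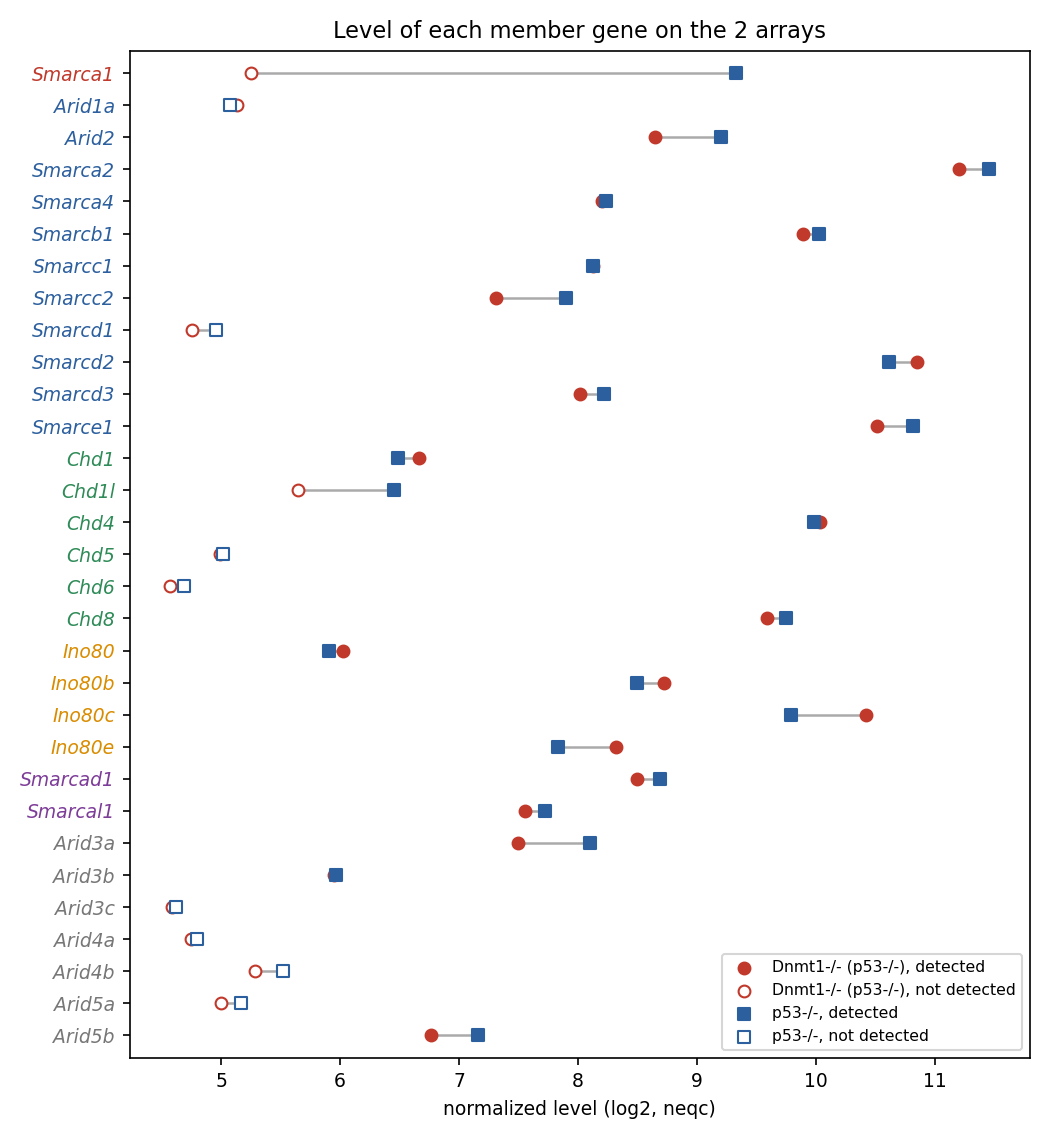
Normalized log2 level of each of the 31 member genes (its probe with the highest mean level) in the Dnmt1-null line (circles) and the control line (squares), 1 array each. Filled points were detected and open points were not. Gene names are coloured by class, and each row is a different probe, so levels compare between lines and not between rows. Smarca1 lies at 5.25 in the Dnmt1-null line and at 9.33 in the control line. The points of every other member lie less than 2-fold apart, where an open point is a level that was not detected.

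Smarca1, the X-linked gene of the ISWI ATPase SNF2L, was the gene with the largest difference among the members. Its single probe gave a signal of 137 units in the Dnmt1-null line, with a detection p-value of 0.142, against 777 units in the control line, with a detection p-value of 0. On the normalized scale this was 5.25 log2 in the Dnmt1-null line and 9.33 log2 in the control line, a difference of -4.08 log2. Because the probe was not detected in the Dnmt1-null line, its fold has a lower limit only, and Smarca1 was at least 12.7-fold lower there. The scatter among the 500 detected genes nearest in mean level, a robust SD over genes and not over replicates, was 0.43 log2. In the authors' deposited table of processed intensities the same probe had 20.2 units in the Dnmt1-null line and 649 units in the control line, where the column medians were 13.8 and 14.2 units in that order. Without background correction the difference shrank to -2.24 log2 and the lower limit to 4.33-fold, still past 2-fold. In a culture, fewer cells that transcribe a gene and less RNA per cell cannot be told apart by these values.

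Smarca1 was the only member on the X chromosome, and the lines differed at sex-linked genes. Of 255 detected X-linked genes 22 (8.63%) were lower by at least 2-fold and 26 (10.2%) were higher, where 4.59% of all detected genes were lower and 5.55% higher. The Y-linked genes Eif2s3y, a translation factor gene, and Kdm5d, a histone demethylase gene, were above background in the control line only. They were at least 24.9-fold and at least 3.0-fold lower in the Dnmt1-null line. Without background correction these limits were 7.80-fold for Eif2s3y and 1.57-fold for Kdm5d. Uty, also Y-linked, was likewise detected in the control line alone and was at least 1.21-fold lower. Xist, the RNA of the inactive X chromosome, passed detection only in the Dnmt1-null line, with 185 units there and 141 units in the control line, and was at least 1.84-fold higher. Without background correction the Xist limit was 1.23-fold. Whether the 2 lines differ in sex was not tested, nor was the part of these sex-linked signals in the Smarca1 difference. Among the 5 protein-coding genes on each side of Smarca1 in the RefSeq gene order, 8 of 10 were on the array and 2 were detected. Ocrl, a phosphatase gene next to Smarca1, had 448 units in the Dnmt1-null line and 602 units in the control line, a difference of -0.38 log2. Zdhhc9, a palmitoyltransferase gene, differed by -0.0013 log2. Both detected neighbours thus lay within 2-fold.

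Dnmt1 acts on CG dinucleotides, so the promoters of the members are described by their CG count. RefSeq windows of build GRCm38.p6, from 250 bases before to 50 after the annotated start, were found for 25 of the 31 genes, and the first window listed was used for each. The Smarca1 window held 9 CG dinucleotides, the third-lowest count of the 25. The median was 24 over the members and 7 over all 27025 genes with a window. A count of 10 or more was found in 88% of the member windows, in 85.8% of the windows of detected genes and in 43.9% of all windows. At least 1 CG was present in 94.2% of all windows. Promoters with fewer CG than Smarca1 belonged to Smarcd2, with 4, and Arid5b, with 7, which differed by 0.24 and -0.39 log2. The highest count, 48, was that of Smarcc2, which differed by -0.59 log2. The 3 windows below show this range, with every CG in capitals. They lie at chrX:47892564-47892863 (minus strand), chr11:106267583-106267882 (minus strand) and chr10:128458986-128459285 (plus strand), and each is written from 5′ to 3′ on the strand of its gene.
Smarca1: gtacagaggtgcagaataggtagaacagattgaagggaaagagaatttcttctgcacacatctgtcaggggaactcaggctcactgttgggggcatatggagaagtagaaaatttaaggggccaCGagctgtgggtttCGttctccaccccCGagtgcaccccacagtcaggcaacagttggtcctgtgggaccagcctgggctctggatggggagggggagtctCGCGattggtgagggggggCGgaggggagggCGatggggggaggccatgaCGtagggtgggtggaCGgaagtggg
Smarcd2: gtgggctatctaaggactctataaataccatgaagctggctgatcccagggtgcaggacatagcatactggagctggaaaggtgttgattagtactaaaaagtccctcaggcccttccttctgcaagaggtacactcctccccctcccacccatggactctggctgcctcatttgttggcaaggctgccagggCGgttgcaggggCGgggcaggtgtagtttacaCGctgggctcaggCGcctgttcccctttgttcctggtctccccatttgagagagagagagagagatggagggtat
Smarcc2: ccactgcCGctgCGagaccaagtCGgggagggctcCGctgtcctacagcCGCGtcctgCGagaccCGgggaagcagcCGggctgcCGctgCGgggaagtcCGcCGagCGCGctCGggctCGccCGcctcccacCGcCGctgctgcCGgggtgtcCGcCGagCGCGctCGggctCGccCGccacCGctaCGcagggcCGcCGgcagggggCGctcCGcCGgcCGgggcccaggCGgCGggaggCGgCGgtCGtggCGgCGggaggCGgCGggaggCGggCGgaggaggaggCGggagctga
The CG of Smarca1 stand in the part of the window nearer the start of the gene, those of Smarcd2 likewise, and those of Smarcc2 run through the whole window. Among detected genes with a window, those at least 2-fold lower had a median of 16 CG, those at least 2-fold higher a median of 8, and all detected genes a median of 21. Methylation was not measured on these arrays.

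**Figure D2:**
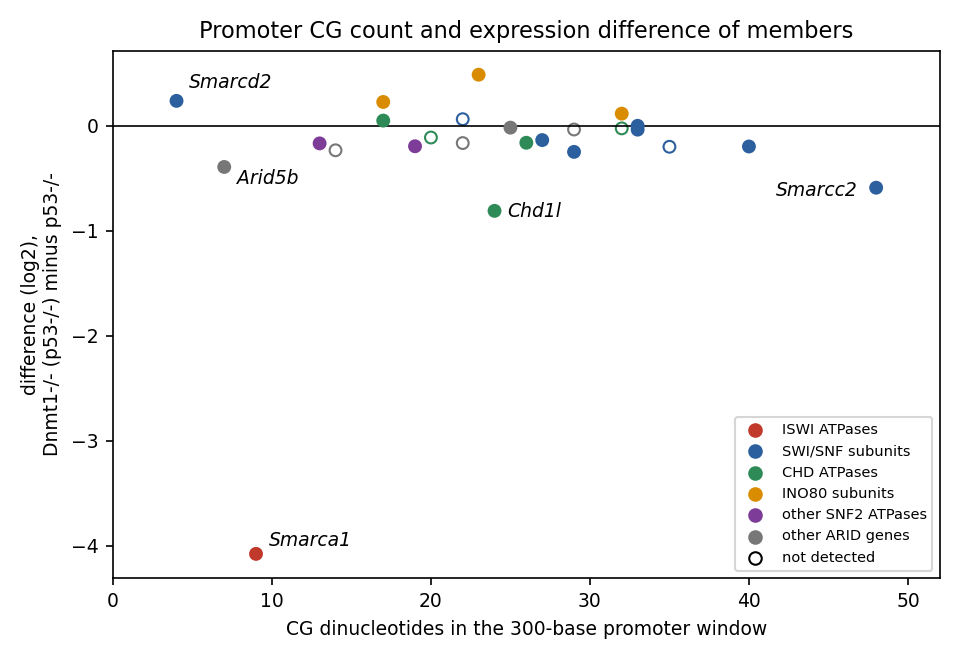
Number of CG dinucleotides in the 300-base promoter window (horizontal axis) and expression difference in log2, Dnmt1-null minus control (vertical axis), for the 25 members with a window. Colours give the class and open points were not detected on either array. Smarca1, with 9 CG, lies at -4.08 log2, while Smarcd2, with 4 CG, and Smarcc2, with 48 CG, lie within 2-fold of the control.

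SWI/SNF subunits were all within 2-fold. Of 11 genes on the array 9 were detected, each on both arrays, with a median difference of -0.20 log2, where the median of all detected genes was -0.04 log2. The catalytic subunits showed little difference. Smarca2 (Brahma, one of the alternative motors) had 2455 units in the Dnmt1-null line and 2878 units in the control line, a difference of -0.25 log2. Smarca4 (Brg1, the other motor) had 387 units in the Dnmt1-null line and 429 units in the control line, which on the normalized scale was -0.04 log2. That direction turned under 1 of the alternatives tried, to 0.0096 log2.

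Scaffold and core subunits were likewise within 2-fold. Smarcc2 (BAF170) had 254 units in the Dnmt1-null line and 368 units in the control line a difference of -0.59 log2. Smarcc1 (BAF155), its paralog, had 371 units in the Dnmt1-null line and 409 units in the control line and fell on the same normalized level, 8.12 log2, in both. A further Smarcc1 probe was detected in the control line alone, with 140.5 units in the Dnmt1-null line and 179 units in the control line, and there its fold has a lower limit of 1.12 only. Smarcb1 (Snf5), a core subunit lost in rhabdoid tumours, had 1032 units in the Dnmt1-null line and 1177 units in the control line, a difference of -0.14 log2. Smarce1 (BAF57), a subunit with an HMG domain, was read by 2 detected probes that gave -0.30 and -0.45 log2. At the first of them it had 1555 units in the Dnmt1-null line and 1941 units in the control line. All these subunits were thus a little lower or level in the Dnmt1-null line, none by as much as 2-fold.

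The BAF60 paralogs, which link the complex to transcription factors, went in different directions within that range. Smarcd2 had 1917 units in the Dnmt1-null line and 1695 units in the control line, a difference of 0.24 log2, and it was the only detected SWI/SNF gene above 0. Smarcd3 (BAF60c), known for a role in heart and skeletal muscle development, had 352 units in the Dnmt1-null line and 426 units in the control line, a difference of -0.20 log2. The summed signal of skeletal muscle markers was higher in the Dnmt1-null line, as given above, and that of Smarcd3 was not. Smarcd1 was detected by none of its 3 probes. Arid2, the DNA-binding subunit that defines PBAF, had 487 units in the Dnmt1-null line and 726 units in the control line, a difference of -0.55 log2. The corresponding BAF subunit gene Arid1a was not detected, at 133 units in the Dnmt1-null line and 151 units in the control line.

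**Figure D3:**
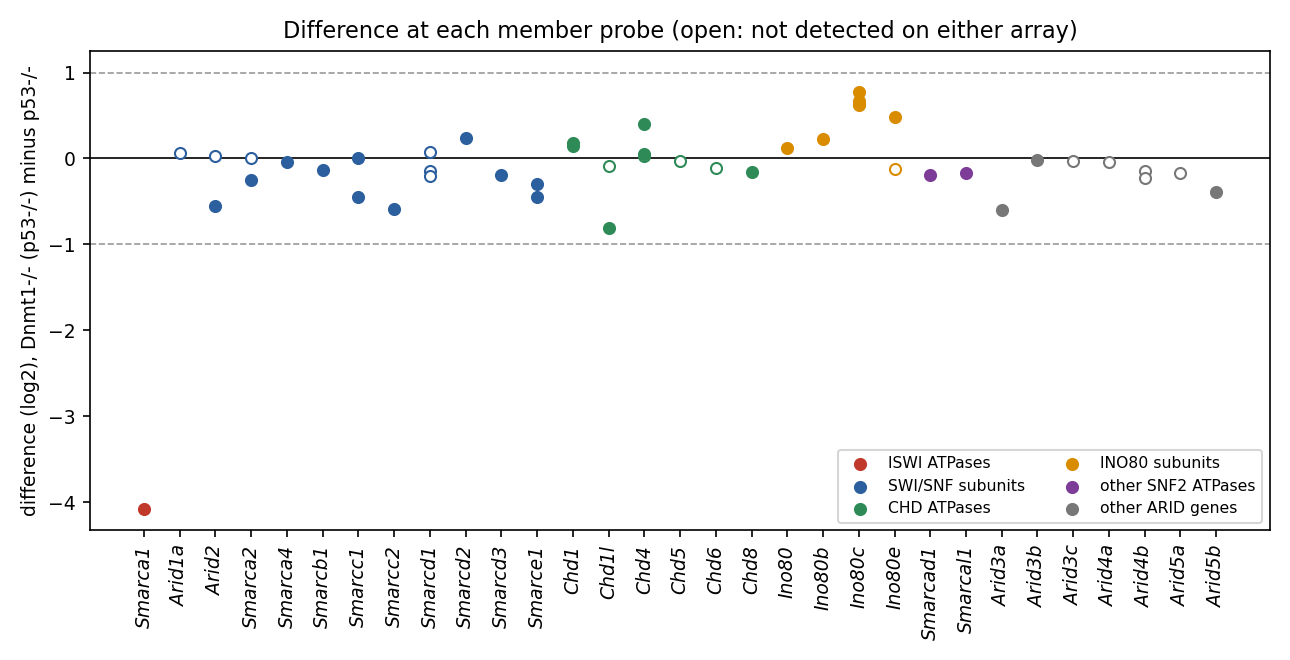
Difference in log2, Dnmt1-null minus control, at each of the 46 member probes, grouped by gene and coloured by class. Open points are probes not detected on either array, and dashed lines mark 2-fold. All points but that of Smarca1 lie between the dashed lines, and the 4 Ino80c probes lie together between 0.62 and 0.77 log2.

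INO80 subunits, here the 4 genes with an Ino80 symbol, were the only member class whose detected genes all lay above 0. Partners of INO80, SRCAP and TIP60, described below from a list, went both ways, with 7 above 0 and 11 below 0. Of all 7727 detected genes 3540 were above 0 and 4167 below 0. The 4 detected partners of the ISWI motors also all lay above 0. All 4 Ino80 genes were detected in both lines, with differences from 0.12 to 0.64 log2 and a median of 0.36 log2. Each remained above 0 under all 10 alternatives tried. Of these, a changed detection rule could not move a difference, nor could averaging of probes for a gene with 1 probe. None reached 2-fold. Ino80c, the mammalian counterpart of the yeast subunit Ies6, had 1458 units in the Dnmt1-null line and 1023 units in the control line, and was 1.56-fold higher at 0.64 log2. Its 4 probes, all detected on both arrays, gave differences of 0.62 to 0.77 log2. They share the transcript and the 2 RNA samples, so they are repeats of the measurement and not of the condition. Ino80e, a subunit found in animals, had 411 units in the Dnmt1-null line and 358 units in the control line, a difference of 0.49 log2. A further Ino80e probe was not detected on either array, and averaging its probes reduced the difference to 0.18 log2. Ino80b, the counterpart of yeast Ies2, had 512 units in the Dnmt1-null line and 495 units in the control line, a difference of 0.23 log2. Ino80, the motor subunit, was close to the detection limit at 165 units in the Dnmt1-null line and 183 units in the control line, a difference of 0.12 log2. The deposited signal of Ino80 was thus lower in the Dnmt1-null line, as was the median signal of all named probes (130.3 units there and 151.1 units in the control line), and the small positive difference arose on correction of the values. It was 0.06 log2 with background correction alone and 0.04 log2 with quantile normalization alone.

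Of the 6 genes with a Chd symbol 4 were detected, with a median of -0.06 log2. The 3 detected in both lines were within 2-fold. Chd4 (Mi-2 beta), the NuRD motor, had 1131 units in the Dnmt1-null line and 1144 units in the control line, a difference of 0.05 log2, and a further detected probe gave 0.41 log2. The direction of its first probe turned under 2 of the alternatives, to -0.022 log2 at the lowest. Chd1, which binds methylated lysine 4 of histone H3 at active genes, had 200 units in the Dnmt1-null line and 214 units in the control line, and its 2 detected probes gave 0.14 and 0.18 log2. Chd8, a repressor of Wnt target genes, had 852 units in the Dnmt1-null line and 999 units in the control line, a difference of -0.16 log2. Chd1l (Alc1), a remodeller recruited by poly-ADP-ribose to damaged DNA, was placed here by its symbol. It had the largest difference of the 4 detected genes. It had 150 units in the Dnmt1-null line, where it was not detected (p-value 0.0345), and 212 units in the control line. Chd1l was thus at least 1.73-fold lower under the main setting, and with the authors' deposited table of processed values its difference of -1.19 log2 passed 2-fold. The Chd1l difference was smaller, -0.28 log2, without background correction and -0.53 log2 with an offset of 50. Averaging the Chd1l probes, of which 1 was not detected on either array, reduced the difference to -0.45 log2.

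The remaining SNF2-type members act at replication forks and at sites of repair. Smarcad1, which takes part in DNA end resection and in the upkeep of heterochromatin, had 450 units in the Dnmt1-null line and 548 units in the control line, a difference of -0.19 log2. Smarcal1, an annealing helicase of stalled forks, had 282 units in the Dnmt1-null line and 341 units in the control line, a difference of -0.17 log2. Neither differed by more than the scatter among genes of similar level (0.37 and 0.38 log2).

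Genes of the Arid3, Arid4 and Arid5 groups carry the ARID DNA-binding domain but are not remodeller subunits, and 3 of 7 were detected. Arid3a (Bright), first known as a regulator of immunoglobulin genes, had 275 units in the Dnmt1-null line and 405 units in the control line and was 1.52-fold lower, at -0.61 log2. Arid5b, which acts in fat metabolism, had 206 units in the Dnmt1-null line and 269 units in the control line, a difference of -0.39 log2. Arid3b, close to the detection limit, differed by -0.02 log2 and turned to 0.0060 log2 under 1 alternative. All 3 detected ARID genes were thus below 0, as were 4167 of all 7727 detected genes, and none of the 3 reached 2-fold.

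At a lower threshold of 1.5-fold, 1 of 23 detected members was higher (Ino80c) and 4 of 23 were lower (Smarca1, Chd1l, Arid3a and Smarcc2). Smarca1 alone passed it without background correction, and Smarca1 and Ino80c alone with an offset of 50. With median scaling and with the authors' values 0 were higher and 5 lower, as Ino80c fell short and Arid2 passed. Without normalization between arrays 1 was higher and 5 lower, again with Arid2. Smarcc2 fell short with cyclic loess normalization, and Chd1l when probes were averaged. Under the main setting 10% of all detected genes were higher and 10.7% lower by at least 1.5-fold. Over the 23 detected members the median difference was -0.16 log2, with 7 above 0, 15 below 0 and Smarcc1 at 0. Over all 7727 detected genes the median was -0.04 log2, with 3540 above 0 and 4167 below 0. Restricted to the 21 members detected on both arrays the median was -0.14 log2, against -0.03 log2 over the 6850 genes detected on both. One detected member, Smarca1, lay farther from 0 than 2 times the scatter among genes of similar level, as did 12.4% of all detected genes.

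**Figure D4:**
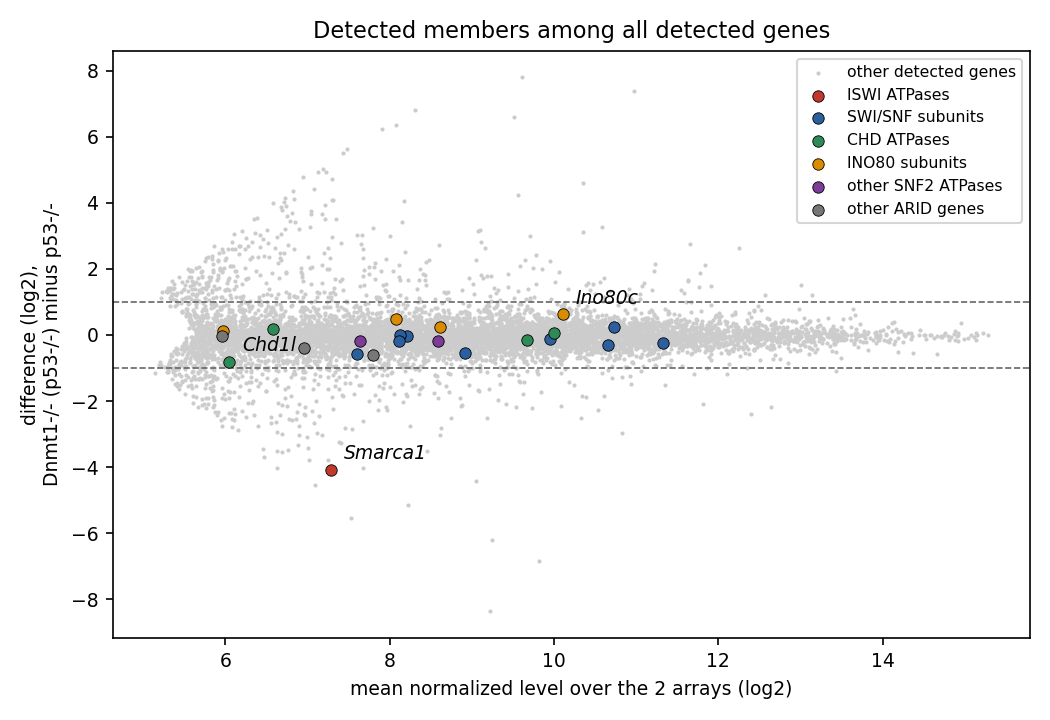
Difference in log2, Dnmt1-null minus control, against the mean normalized log2 level over the 2 arrays, for all 7727 detected genes (grey) and the 23 detected members (coloured by class). Dashed lines mark 2-fold. Smarca1 lies at -4.08 log2, and the other 22 members lie between -0.81 and 0.64 log2, inside the dashed lines.

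The 8 members not detected on either array were Arid1a, Arid3c, Arid4a, Arid4b, Arid5a, Chd5, Chd6 and Smarcd1. At the probe used for each, signals ran from 105 to 138 units in the Dnmt1-null line and from 130.0 to 168 units in the control line, and no fold is given. Chd5 is known mainly from neurons and testis, while Arid1a and Smarcd1 are widely transcribed, and for these genes the values say only that the probes were not above background.

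Partner subunits and related motors that do not carry these names were described from lists. Of 13 BAF and PBAF partners on the array 7 were detected, with 2 lower by 2-fold or more, 0 higher and a median of -0.28 log2, where 4.59% of all detected genes were lower and 5.55% higher. One of the 2, Bcl11b, passed detection in the control line alone. Bcl11b, a zinc finger transcription factor that associates with BAF and is best known from T cells, had 116 units in the Dnmt1-null line and 418 units in the control line. It was at least 5.72-fold lower, and at least 2.35-fold lower without background correction. Bcl7a, a small BAF subunit, had 316 units in the Dnmt1-null line and 589 units in the control line and was 2.03-fold lower. It passed 2-fold under 7 of the 10 alternatives, and lay at -0.73 log2 without background correction. Those passed include a changed detection rule and averaging of probes, which could not move this gene with 1 probe. Actl6a, an actin-related subunit, differed by -0.28 log2 and its neuronal counterpart Actl6b was not detected.

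Of 7 partners of the ISWI motors on the array 4 were detected, all within 2-fold, with a median of 0.16 log2. Chrac1, a histone-fold subunit of the CHRAC complex, had 1111 units in the Dnmt1-null line and 938 units in the control line, a difference of 0.36 log2. Its partner Pole3 differed by 0.22 log2, and the histone-binding subunit gene Rbbp7 by 0.03 log2. Of 10 NuRD partners 9 were detected and all were within 2-fold, with a median of -0.03 log2. Among them the deacetylase genes Hdac1 and Hdac2 differed by -0.23 and -0.44 log2, and the small subunit gene Cdk2ap1 by -0.17 log2. Of 22 INO80, SRCAP and TIP60 partners 18 were detected, and their median was -0.11 log2. The 16 detected in both lines were within 2-fold, and 2 passed detection in the control line alone. The ATPase gene Ruvbl1 differed by -0.12 log2 and Morf4l1, a chromodomain subunit gene, by 0.10 log2. Kat5, the acetyltransferase of TIP60, was the one past 1.5-fold, with 357 units in the Dnmt1-null line and 298 units in the control line (0.63 log2). Kat5 fell short of 1.5-fold under most alternatives. Among them it was 0.39 log2 without background correction, 0.50 log2 with median scaling and 0.49 log2 when probes were averaged. Of 11 other SNF2-type motors 7 were detected, all within 2-fold, with a median of -0.28 log2. Ep400, the motor of the TIP60 complex, differed by -0.14 log2 and Rad54b, a recombination motor, by -0.42 log2. Zranb3, a fork remodelling enzyme gene, had 423 units in the Dnmt1-null line and 688 units in the control line and was 1.66-fold lower. Hells, the motor known to support DNA methylation, and Atrx, which deposits histone H3.3 with Daxx, were not detected on either array.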

How the data were processed

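Total RNA of 2 cultures was labelled with biotin and hybridised to 1-colour bead arrays, per the labels' protocols. The deposited intensity values were not normalized, per the file headers, and no source used here names the scanner software. The authors also deposited a detection p-value for each probe and array. A further table held linear intensities processed by the authors, by a method that no source used here names, and served as an alternative after a floor of 16 and log2.

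Background correction (normexp with parameters from the detection p-values, offset 16), quantile normalization and log2 were done with neqc of limma 3.58.1 in R 4.3.3. Summaries used Python 3.11.15. Of the steps, background correction and normalization under the main setting were tested on simulated data, at bright probes with known folds. Each gene was represented by its probe with the highest mean level. Of 25697 probes 23978 had 1 gene symbol. Where 1 array did not detect a gene, its fold is a lower limit, taken against the higher of its own level and the lowest detected level there (5.66 log2 in the Dnmt1-null line, 5.57 log2 in the control line). Each genotype had 1 array, so there is no test, and the number of arrays limits every value. The members and lists were chosen with earlier results of these data known. All members could be named, and from each list those past 2-fold or otherwise the 2 with the highest mean level. Other list genes (Actl6a, Actl6b, Pole3, Hdac1, Kat5, Zranb3, Hells, Atrx) were named after their values were seen. Sequences are RefSeq's.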

Additional observations from a re-analysis of the deposited data

How the results depend on the processing

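Smarca1 was lower by 2-fold or more under all 10 alternatives. A looser detection threshold, no detection filter and averaging of probes could not move the difference of Smarca1, which has 1 probe. Its difference of -4.08 log2 moved to -2.24 log2 without background correction, -3.23 log2 with an offset of 50, -2.94 log2 with that offset and normexp without detection p-values, and -5.0 log2 with the authors' processed values, since each of these sets the level of an undetected probe differently. The number of members lower by 2-fold or more was 1 under every alternative except the authors' values, with 2 (Chd1l was the other), and a 1.5-fold threshold, with 4 lower and 1 higher. No member was higher by 2-fold under any other setting. The median of the detected members ran from -0.26 to -0.12 log2, and Dnmt1 from -2.32 to -1.84 log2. Over all detected genes 429 were higher and 355 lower, and these counts were 182 and 133 with the background left in, 297 and 233 with the offset raised to 50, 272 and 206 with that offset and normexp without detection p-values, and 463 and 568 with the authors' values. Setting folds at their lower limit was added after seeing the data. No paired analysis was possible because each genotype had 1 array. Probe position and cross-hybridisation were not examined.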

Other observations

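Probes of the same gene did not always pass detection together. In 5 member genes (Arid2, Chd1l, Chd4, Ino80e and Smarca2) detected and undetected probes occurred side by side. For Smarca2 the probe used had 2455 units in the Dnmt1-null line and 2878 units in the control line, and the other had 135 units in the Dnmt1-null line and 156 units in the control line, with no detection on either array. For Arid2 the undetected probe had 124 units in the Dnmt1-null line and 143 units in the control line. Smarca1, the member with the largest difference, is among 20 member genes read by a single probe, so it has no further probe to set beside it.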
